A study of Homo sapiens with 7 samples.

Results

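The thin filament of heart muscle carries a calcium switch made of troponin and tropomyosin, and its RNAs were followed here in human cardiomyocytes given an antisense oligonucleotide (ASO) against MYH7B. The set held 9 genes chosen by name: the troponins TNNT2, TNNT1, TNNI1, TNNI3 and TNNC1, and the tropomyosins TPM1, TPM2, TPM3 and TPM4. All 9 were present among the 60234 genes of the deposited table, and all 9 passed the minimum mean level for testing that 15988 genes passed. Levels are in TPM, a length-scaled share of the RNA in a library that is not to be confused with the genes TPM1 to TPM4, so levels of different genes can be compared.

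The cells were cardiomyocytes made from WTC-11, an established human induced pluripotent stem cell line, by a small molecule protocol. They were matured for 35 days and then given either a scrambled ASO (replicates 1 to 3) or an ASO against MYH7B (replicates 1 to 4), each given passively at 2 uM for 96 h. ASOs are short, chemically made strands that bind an RNA of matching sequence. The study addressed whether the MYH7B transcript acts as a regulatory RNA in heart muscle cells; every library came from the same line, there was no untreated group, and no label says that replicates were separate differentiations. The p-values therefore measure the spread between these libraries, which may be technical.

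In muscle, tropomyosin is a coiled-coil cable laid along the actin filament. At rest it blocks the sites where myosin binds, with troponin I holding it in place. Calcium binding to troponin C releases troponin I, and troponin T ties the complex to tropomyosin. The fetal heart uses mostly slow skeletal troponin I (TNNI1), which gives way to cardiac troponin I (TNNI3) around birth and after, and stem cell cardiomyocytes are known for keeping much of the fetal form. Tropomyosins TPM1 and TPM2 serve muscle, though not muscle alone, and TPM3 and TPM4 also supply the cytoskeleton of most other cells.

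MYH7B, the target, was lower with its ASO (log2 fold change -1.85, limma adjusted p = 0.0109, or 0.0618 without MYH7B ASO replicate 4), with 23.0, 36.5 and 25.1 TPM of MYH7B in the scrambled ASO libraries and 9.30, 5.65 and 6.31 TPM in MYH7B ASO replicates 2 to 4. Correlations between these 6 libraries across genes ran from 0.959 to 0.979. MYH7B ASO replicate 1 stood apart: its column is out of register with the gene names, and once reordered it had 1.29 TPM of MYH7B and 17.2% of its TPM in mitochondrially encoded genes, against 27.4% to 33.6% in the other 6. The comparisons use the 6 libraries, with 3 in each group, and its values follow beside them. Among cardiomyocyte markers, ACTC1 had 2185 to 3730 TPM and MYH6 954 to 1555 TPM over the 6 libraries. The 10 cardiomyocyte markers summed to 12465 to 13522 TPM with the scrambled ASO and 9423 to 10616 TPM in MYH7B ASO replicates 2 to 4, which do not overlap. Of the 10, 7 had negative log2 fold changes (median -0.43) and ACTC1 alone was called lower in limma, as were 1.48% of all tested genes. The part of this difference in the levels of the troponins and tropomyosins was not tested. The skeletal muscle genes MYF5 and MYH1 were listed at 0 in all 6, but CKM of the same list had 239 to 467 TPM and MYLPF up to 3.25 TPM. Of the endothelial markers, VWF stayed under 1 TPM, while KDR had 6.89 to 9.82 TPM and TEK 3.23 to 12.2 TPM. Fibroblast markers varied widely, with 609 to 2215 TPM of COL1A1, but 4.80 to 68.8 TPM of LUM and 0.51 to 6.22 TPM of FAP. RNA of genes typical of other cell types was thus present, and which cells made it was not tested.

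The members include a pair of close neighbours on chromosome 1 and another on chromosome 19 (GENCODE 29 on GRCh38, the build that the submitters' processing notes name as GRCh38.p13). Identifiers and their versions are those deposited with the levels, and positions were read from GENCODE 29 by gene name. TNNT2 (ENSG00000118194.20) spans positions 201359008 to 201377762 of chromosome 1, and TNNI1 (ENSG00000159173.19) lies 26006 bp away at 201403768 to 201429866. TNNT1 (ENSG00000105048.17, chromosome 19, 55132794 to 55149354) and TNNI3 (ENSG00000129991.13, 55151767 to 55157773) are only 2413 bp apart. TNNC1 (ENSG00000114854.8) is on chromosome 3 at 52451102 to 52454070. TPM1 (ENSG00000140416.22) is on chromosome 15 at 63042632 to 63071915, TPM2 (ENSG00000198467.15) on chromosome 9 at 35681992 to 35690121, TPM3 (ENSG00000143549.21) on chromosome 1 at 154155304 to 154194648 and TPM4 (ENSG00000167460.17) on chromosome 19 at 16067021 to 16103005. TPM1 overlaps the antisense gene TPM1-AS, and without a stated strand setting their reads cannot be told apart, but TPM1-AS had a mean of only 3.71 TPM. TPM3 has 8 annotated pseudogenes, whose summed level reached at most 9.70 TPM in the 6 libraries, so a small part of the TPM3 signal may be divided with them.

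Promoters were examined because regulators of troponin transcription are among the genes described further on. RefSeq (GRCh38.p14) gave promoter windows for 7 of the 9 members, all but TNNI1 and TNNC1. The 4 windows shown are the 250 bases before an annotated start, 5′ to 3′ on the gene's strand: TNNT2 as the defining cardiac troponin, TNNI3 and TPM2 as the members with the most negative fold changes (for TPM2, 1 of its annotated starts), and TPM4 as the member that holds a CArG box. Capitals mark matches to the MCAT core CATTCC (bound by TEAD factors), to the GATA site AGATAA, to TATAAA or to the CArG box (bound by SRF), each searched on both strands, so that the GATA site reads TTATCT where it lies on the reverse strand.
TNNT2, chr1:201377681-201377930, minus strand: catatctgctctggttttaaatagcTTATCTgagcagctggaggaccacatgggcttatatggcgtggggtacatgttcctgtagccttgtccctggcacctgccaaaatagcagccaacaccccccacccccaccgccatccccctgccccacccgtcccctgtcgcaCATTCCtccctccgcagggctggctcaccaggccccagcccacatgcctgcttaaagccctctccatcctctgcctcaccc
TNNI3, chr19:55157733-55157982, minus strand: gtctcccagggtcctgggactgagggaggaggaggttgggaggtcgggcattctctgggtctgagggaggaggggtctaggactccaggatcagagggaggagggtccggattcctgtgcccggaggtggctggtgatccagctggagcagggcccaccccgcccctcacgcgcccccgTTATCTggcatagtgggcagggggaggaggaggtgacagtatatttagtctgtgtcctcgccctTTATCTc
TPM2, chr9:35689926-35690175, minus strand: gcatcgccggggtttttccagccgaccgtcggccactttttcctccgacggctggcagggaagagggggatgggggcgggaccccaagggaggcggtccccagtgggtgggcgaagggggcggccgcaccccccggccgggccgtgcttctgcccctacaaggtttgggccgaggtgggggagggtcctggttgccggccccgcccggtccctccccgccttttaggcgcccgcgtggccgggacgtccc
TPM4, chr19:16067288-16067537, plus strand: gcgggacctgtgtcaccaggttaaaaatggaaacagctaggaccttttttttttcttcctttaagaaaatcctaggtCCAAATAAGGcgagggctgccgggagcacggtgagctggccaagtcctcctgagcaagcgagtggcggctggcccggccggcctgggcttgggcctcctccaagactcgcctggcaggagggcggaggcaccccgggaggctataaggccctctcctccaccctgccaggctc
The TNNT2 window held 1 MCAT core, from 81 to 76 bases before the start, and 1 match to the GATA site. The TNNI3 window held 2 matches to the GATA site on the reverse strand, from 71 and from 7 bases before the start, and no MCAT core. The TPM2 window held none of the 4 motifs, and the TPM4 window held a CArG box from 173 to 164 bases before the start, which reads as a match on each strand. Of 34943 promoter windows of this length, 11.9% held the MCAT core, 9.19% the GATA site, 10.8% TATAAA and 1.16% the CArG box. Each window overlaps the GENCODE 29 span of its gene, which reaches further upstream than the RefSeq start used.

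The 9 genes together made up 0.608%, 0.660% and 0.710% of all TPM in the scrambled ASO libraries and 0.731%, 0.617% and 0.613% in MYH7B ASO replicates 2 to 4. The ranges overlap, and replicate 1 had 0.684%. In the scrambled ASO libraries TPM1 was the most abundant member and ranked 51 among all genes by mean level. TNNT2 and TNNI1 ranked 111 and 114, TNNC1 162, TPM2 256, TNNT1 352, TNNI3 382 and TPM4 438, whereas TPM3 ranked 1629. TNNT2 and TNNI1, with mean levels of 1238 ± 118 and 1198 ± 98.9 TPM (SD, n = 3), did not differ beyond their spread, and neither did TNNT1 and TNNI3 at 227 ± 46.5 and 208 ± 15.8 TPM (SD, n = 3).

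Across the whole set, none of the 9 genes was called in limma on 6 libraries at an adjusted p under 0.05, where 265 of the 15988 tested genes passed, 1.66% (0.181% or 29 higher, 1.48% or 236 lower). With 7 libraries none of the 9 was called either, against 1.07% of all tested genes. Only TPM2 had an unadjusted p under 0.05, which 15.2% of all tested genes had. With quantile normalization the split of called genes was 55 higher and 202 lower. In this fit the 95% interval of every member excluded a 2-fold change in either direction. That did not hold in every alternative: with 7 libraries the interval of TNNI3 reached -1.55 and that of TPM3 1.26 on the log2 scale, and with no intensity trend that of TNNI1 reached 1.03 and that of TPM2 -1.03. Without single libraries the TNNI1 interval reached up to 1.12 and the TPM2 interval down to -1.09. With a replicate block by description number, the intervals of TNNI3, TPM2, TPM3 and TPM4 reached -1.08, -1.30, -1.18 and -1.13. With a block by title number that of TNNI1 reached 1.09 and that of TNNI3 -1.17. With the title block over 7 libraries that of TNNI3 reached -1.80 and that of TPM3 1.48. The members' log2 fold changes, on the log2(TPM + 1) scale, ran from -0.55 to 0.42 with a median of -0.21, beside a median of -0.044 over all tested genes, and 7 of the 9 were negative. Scrambled ASO replicate 3 had the highest level of the 6 libraries for 8 of the 9 members, all but TNNI1, and it also had the lowest mitochondrial share (27.4%). How many of all tested genes were highest in that library was not counted, so this may not be particular to the members. The authors' deposited table called TPM2 alone of the 9, as lower, where 8.71% of the genes with an adjusted p-value were under 0.05 (5.69% lower and 3.02% higher).

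Groups did not overlap for 3 of the 9 members, against 21.2% of all tested genes (14.1% lower and 7.11% higher). TNNI1 was higher in every MYH7B ASO library of the 6, and TNNI3 and TPM2 were lower in every one. The plot of member levels shows these 3 separations and the overlap of the other 6.

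**Figure D1:**
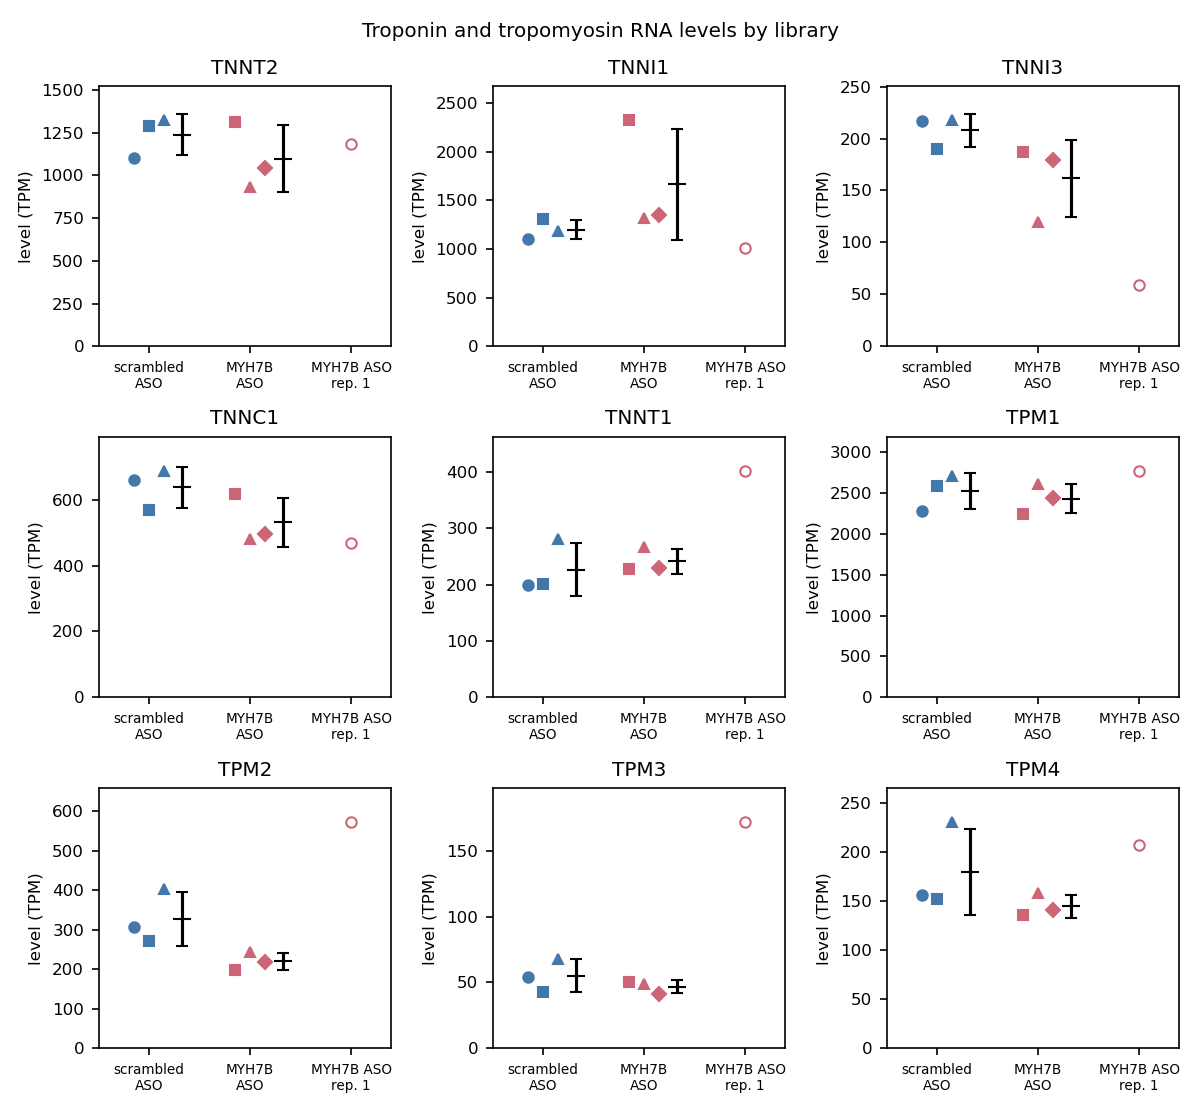
Level of each gene (TPM, y axis from 0) in scrambled ASO replicates 1 to 3 (blue) and MYH7B ASO replicates 2 to 4 (red), with the group mean and SD (n = 3) as bars. Symbol shape gives the replicate (1 circle, 2 square, 3 triangle, 4 diamond), and the open circle is the reordered MYH7B ASO replicate 1. TNNI1 in MYH7B ASO replicate 2, at 2324 TPM, stands far above the 1106 to 1344 TPM of the other 5 libraries compared.

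Troponin T anchors the complex to tropomyosin. TNNT2, the cardiac form and the usual marker of cardiomyocytes, had 1103, 1287 and 1324 TPM with the scrambled ASO and 1314, 933 and 1045 TPM in MYH7B ASO replicates 2 to 4. The groups overlap, because replicate 2 was nearly as high as the highest control. The log2 fold change was -0.18 (SE 0.15, limma adjusted p = 0.611), an interval in fold terms from 0.691 to 1.12. TNNT1, the slow skeletal form that is also made by the fetal heart, had 199, 201 and 280 TPM with the scrambled ASO and 227, 267 and 230 TPM with the MYH7B ASO. Again the groups overlap, and the log2 fold change was 0.10 (SE 0.16, limma adjusted p = 0.807). Replicate 1 had 1181 TPM of TNNT2, within both groups, and 402 TPM of TNNT1, above all other libraries. TNNT1 made up 15.3%, 13.5% and 17.5% of troponin T RNA with the scrambled ASO and 14.7%, 22.2% and 18.0% with the MYH7B ASO. The log2 ratio of TNNT1 to TNNT2 differed by 0.29 between the groups, which overlap (2-sided exact permutation p = 0.4, adjusted over 5 ratios 0.500).

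Troponin I is the inhibitory subunit, and here its fetal and adult forms lay apart from the controls in opposite directions, though neither was called. TNNI1 had 1106, 1302 and 1186 TPM with the scrambled ASO and 2324, 1317 and 1344 TPM in MYH7B ASO replicates 2 to 4. Every MYH7B ASO library of the 6 lay above every control, although replicates 3 and 4 did so by little. The log2 fold change was 0.42 (SE 0.22, limma adjusted p = 0.404), and it was 0.15 without MYH7B ASO replicate 2 (limma adjusted p = 0.725). In the authors' deposited table the shrunken value for TNNI1 was 0.46 (adjusted p-value 0.0625). Replicate 1 had 1007 TPM, below every control, so with all 7 libraries the groups overlap.

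TNNI3, the cardiac form measured in blood as a sign of heart injury, had 217, 190 and 218 TPM with the scrambled ASO. It had 187, 119 and 179 TPM in MYH7B ASO replicates 2 to 4, so the highest of these lay just under the lowest control. The log2 fold change was -0.39 (SE 0.18, limma adjusted p = 0.372), with an interval in fold terms from 0.571 to 1.03. Leaving out MYH7B ASO replicate 3, the lowest of the 6, gave -0.18 (limma adjusted p = 0.703). Replicate 1 had 59.0 TPM, the lowest of all 7, and with it the change was -0.74 (limma adjusted p = 0.413). In the authors' deposited table the value was -0.25 (adjusted p-value 0.447).

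Expressed within each library, the share of TNNI3 in troponin I RNA was 16.4%, 12.7% and 15.5% with the scrambled ASO. MYH7B ASO replicates 2 to 4 had 7.46%, 8.31% and 11.8%, and replicate 1 had 5.54%. TNNI1 was thus the larger form in all 7 libraries, and its predominance was greater in each MYH7B ASO library than in any control. The log2 ratio of TNNI3 to TNNI1 was -2.52 ± 0.22 with the scrambled ASO and -3.34 ± 0.38 with the MYH7B ASO (SD, n = 3 each), a difference of -0.81 (2-sided exact permutation p = 0.1, the smallest that 3 against 3 allows, adjusted over 5 ratios 0.167). With replicate 1 added the difference was -1.0 and the exact permutation p was 0.0571. Leaving out single libraries gave differences from -1.02 to -0.66. A ratio within a library does not depend on scaling between libraries. In bulk RNA, fewer cells of a type and less RNA per cell cannot be told apart.

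**Figure D2:**
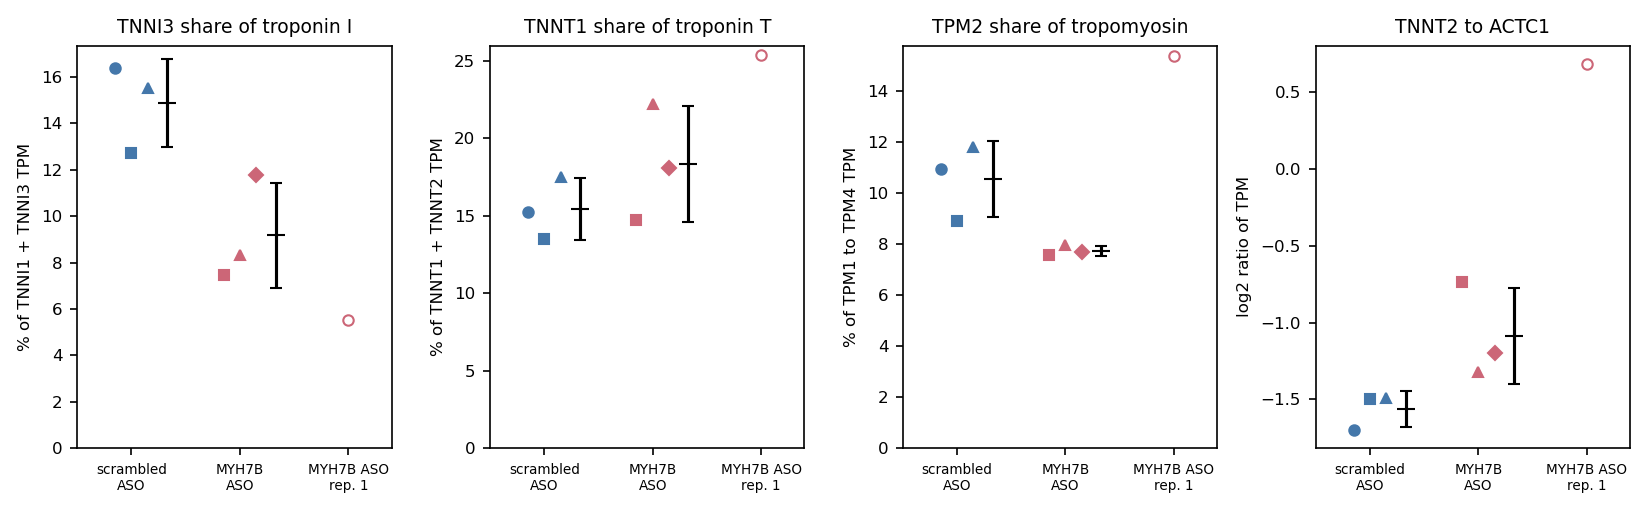
Share of TNNI3 in troponin I RNA, of TNNT1 in troponin T RNA and of TPM2 in tropomyosin RNA (percent of TPM, y axes from 0), and the log2 ratio of TNNT2 to ACTC1, in each library. Symbols and bars are as in the plot of levels (bars are mean and SD, n = 3). The TNNI3 share was 12.7% to 16.4% in controls and 7.46% to 11.8% in MYH7B ASO replicates 2 to 4, while the TNNT1 shares overlap.

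Both troponin gene pairs that share a neighbourhood had fold changes of opposite sign. TNNI3 and TNNT1, 2413 bp apart, had log2 fold changes of -0.39 and 0.10, and TNNT2 and TNNI1 had -0.18 and 0.42. None of these 4 changes was called, and the difference within a pair was not tested across genes.

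TNNC1, the calcium sensor shared by heart and slow skeletal muscle, had 658, 569 and 687 TPM with the scrambled ASO and 617, 481 and 497 TPM in MYH7B ASO replicates 2 to 4. Replicate 2 again lay within the control range, while replicates 3 and 4 lay below it. The log2 fold change was -0.27 (SE 0.14, limma adjusted p = 0.420), and replicate 1 had 469 TPM. Summed troponin T was 1302, 1488 and 1604 TPM with the scrambled ASO and 1541, 1199 and 1275 TPM with the MYH7B ASO, and summed troponin I 1322, 1492 and 1404 against 2512, 1436 and 1523 TPM. The RNAs of T and I were therefore near equal in the controls, while that of C was lower in every library, although the proteins work in equal numbers in the complex.

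Among tropomyosins, TPM1 carries most of the muscle form. It had 2277, 2582 and 2703 TPM with the scrambled ASO and 2249, 2606 and 2436 TPM in MYH7B ASO replicates 2 to 4. The groups overlap almost fully, with a log2 fold change of -0.052 (SE 0.12, limma adjusted p = 0.877). The interval of its fold change, from 0.800 to 1.16, was the narrowest of the 9, and replicate 1 with 2770 TPM was also close. The sign of so small a difference turned with median-ratio rescaling (0.0055) and quantile normalization (0.0018). TPM1 RNA takes many splice forms, and the deposited values, given per gene, do not separate them.

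TPM2, known as beta-tropomyosin and shared by skeletal, smooth and cardiac muscle, had the log2 fold change of largest size among the 9 on the 6 libraries. That of TNNI3 was larger in size with 7 libraries and without MYH7B ASO replicate 2 (-0.50, against -0.49 for TPM2). That of TNNI1 was larger in size without scrambled ASO replicate 3 (0.42, against -0.39) and, by very little, without MYH7B ASO replicate 4 (0.5492, against -0.5490). TPM2 had 307, 272 and 403 TPM with the scrambled ASO and 199, 243 and 218 TPM in MYH7B ASO replicates 2 to 4. All 3 of these lay below all controls, and the group mean was 0.673 times that of the controls. The log2 fold change was -0.55 (SE 0.17, interval from -0.94 to -0.17, unadjusted p = 0.00991, limma adjusted p = 0.166), so it was not called across all genes. In the authors' deposited table the value was -0.45 (adjusted p-value 0.0336). Replicate 1 had 573 TPM, the highest of all 7 libraries, and with it the log2 fold change was -0.21 (limma adjusted p = 0.817). Without scrambled ASO replicate 3, the highest control, it was -0.39 (limma adjusted p = 0.241).

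As a share of tropomyosin RNA, TPM2 took 10.97%, 8.92% and 11.8% with the scrambled ASO and 7.57%, 7.96% and 7.68% in MYH7B ASO replicates 2 to 4. The share was uniform among these 3 libraries (SD 0.20 percentage points, against 1.5 in controls), but replicate 1 had 15.4%. The share of TPM1 was 81.9% ± 2.66 with the scrambled ASO and 85.5% ± 0.34 with the MYH7B ASO (SD, n = 3 each), a difference of 3.65 percentage points (2.42 without scrambled ASO replicate 3) with groups that do not overlap (2-sided exact permutation p = 0.1, the smallest possible, adjusted over 5 ratios 0.167). With replicate 1, whose TPM1 share was 74.4%, the difference was 0.88 (exact permutation p = 0.800) and the groups overlap.

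TPM2 is abundant in smooth muscle and fibroblasts, and the summed markers of these cells were lower in the same libraries, though not every marker was. The 8 smooth muscle markers summed to 1046 to 1500 TPM with the scrambled ASO, 601 to 802 TPM in MYH7B ASO replicates 2 to 4 and 1208 TPM in replicate 1. In limma on the 6 libraries 2 of the 8 were called lower, MYH11 and ACTG2, and none higher, and CNN1 (0.24) and SMTN (0.071) had positive log2 fold changes. The 9 fibroblast markers summed to 2904 to 5251 TPM, 1354 to 2085 TPM and 4143 TPM in the same order, with 2 of 9 called lower (COL1A2 and LUM) and none higher. PDGFRA of fibroblasts was higher in all 3 MYH7B ASO libraries of the 6 (log2 fold change 0.60, limma adjusted p = 0.152). Over all tested genes 1.48% were called lower and 0.181% higher, and 7.11% lay higher without overlap. No marker of either list was at 0 in the 6 libraries. Scrambled ASO replicate 3 was highest of the 6 for both sums and for TPM2. The part of these markers in the TPM2 difference was not tested.

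**Figure D3:**
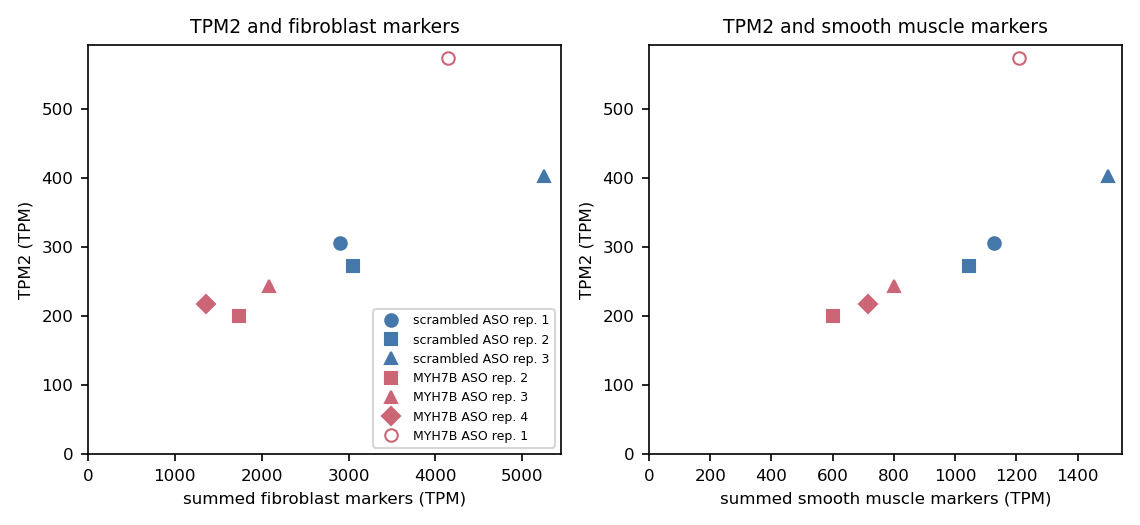
Level of TPM2 (TPM) against the summed level of 9 fibroblast markers (left) and 8 smooth muscle markers (right), each point 1 library, blue for the scrambled ASO and red for the MYH7B ASO, with both axes from 0. The 3 red filled points lie at lower marker sums and at 199 to 243 TPM of TPM2; the open point, replicate 1, lies at 573 TPM.

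TPM3 and TPM4 supply cytoskeletal tropomyosins, with TPM3 also making the slow skeletal form. TPM3 had 54.2, 42.8 and 67.9 TPM with the scrambled ASO and 50.6, 48.5 and 41.0 TPM in MYH7B ASO replicates 2 to 4. TPM4 had 156, 152 and 231 TPM, and 136, 158 and 141 TPM, in the same order. Both sets overlap, and in both the highest value was that of scrambled ASO replicate 3. The log2 fold changes were -0.21 for TPM3 (SE 0.19, limma adjusted p = 0.638) and -0.28 for TPM4 (SE 0.18, limma adjusted p = 0.501). Without scrambled ASO replicate 3 they were -0.050 and -0.092 (limma adjusted p = 0.915 and 0.758). Replicate 1 had 172 TPM of TPM3, above every other library, and 207 TPM of TPM4, inside the control range.

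Set against one another, summed troponin and summed tropomyosin did not separate the groups. Troponins summed to 3282, 3549 and 3696 TPM with the scrambled ASO and 4671, 3116 and 3295 TPM in MYH7B ASO replicates 2 to 4, and tropomyosins to 2794, 3049 and 3405 TPM and 2635, 3055 and 2836 TPM. The log2 ratio of the sums differed by 0.17, with overlapping groups (2-sided exact permutation p = 0.900, adjusted over 5 ratios 0.900). Without MYH7B ASO replicate 2, the library with the high TNNI1, it was -0.067.

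Of the 6 actins among the thin filament partners of these proteins, 3 fell. ACTC1, the cardiac actin, had 3583, 3629 and 3730 TPM with the scrambled ASO and 2185, 2335 and 2403 TPM in MYH7B ASO replicates 2 to 4, a log2 fold change of -0.66 (SE 0.10, limma adjusted p = 0.0209). ACTA1, the skeletal actin also made by fetal heart, went from 28.3 ± 6.48 to 10.3 ± 0.40 TPM (SD, n = 3 each), a log2 fold change of -1.35 (limma adjusted p = 0.0156). ACTG2, an actin of smooth muscle, changed by -2.02 (limma adjusted p = 0.0173). These were the only called genes among 17 tested of 20 listed partners, 3 lower and none higher. Over all tested genes 1.48% were called lower and 0.181% higher. The list was chosen with earlier results of these data known. ACTA2 of smooth muscle had -0.91 (limma adjusted p = 0.0910). The cytoskeletal actins ACTB and ACTG1 had -0.056 and 0.15, with overlapping groups (limma adjusted p = 0.942 and 0.655). ACTC1, ACTA1, ACTG2 and ACTA2 were called lower in the authors' deposited table, as were 5.69% of its genes with an adjusted p-value. The actin calls depended on the libraries and settings used: ACTC1 was not called in 12 of 18 alternatives, and ACTA1 and ACTG2 were each not called in 9. With no filter on low values none of the 3 was called, with no intensity trend ACTA1 alone was, and with 7 libraries ACTG2 alone was. ACTC1 was not called when any 1 library was left out (limma adjusted p from 0.0547 to 0.103). ACTA1 was not called without MYH7B ASO replicate 2, 3 or 4 or scrambled ASO replicate 3 (limma adjusted p from 0.0558 to 0.0833). ACTG2 was not called without MYH7B ASO replicate 2, 3 or 4 or scrambled ASO replicate 2 (limma adjusted p from 0.0514 to 0.0757). The log2 fold changes in these fits kept their sign.

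The tested regulators of filament ends and length were not called. The log2 fold change was -0.13 for TMOD1 (which caps pointed ends), -0.068 for LMOD2 (which elongates them), -0.094 for NEBL and 0.083 for CAPZA1. It was -0.44 for TMOD3, with overlapping groups, and -0.25 for LMOD1, whose groups did not overlap. Of all tested genes 14.1% lay lower without overlap. NEB, too low to be tested, averaged 0.91 TPM with the scrambled ASO and 0.19 TPM with the MYH7B ASO, without overlap. Of the 17 tested partners, actins among them, 14 had negative and 3 positive log2 fold changes. The median of the 17 tested partners was -0.094, beside -0.044 over all tested genes.

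**Figure D4:**
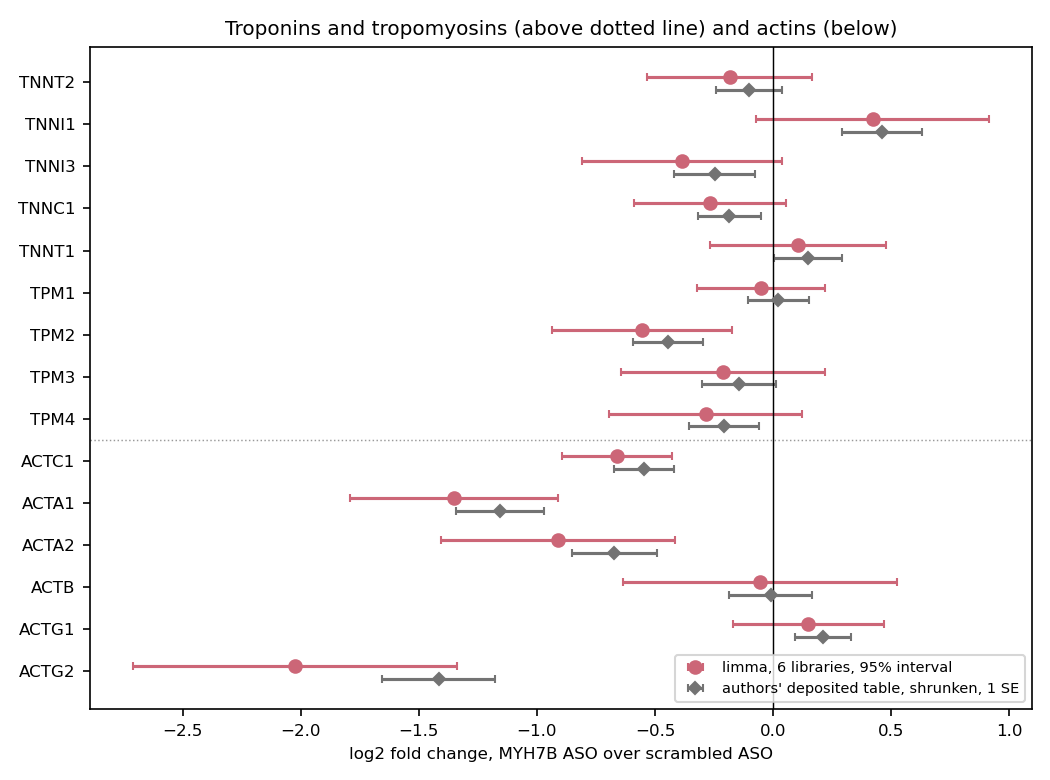
Log2 fold change (x axis, MYH7B ASO over scrambled ASO) of the 9 troponin and tropomyosin genes and 6 actins. Red circles are limma estimates on 6 libraries with 95% intervals, and grey diamonds are the shrunken values of the authors' deposited table with 1 standard error. Of the 9 genes only TPM2 has a limma interval that excludes 0, while the intervals of ACTC1, ACTA1, ACTA2 and ACTG2 lie below 0 and those of ACTB and ACTG1 span it.

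TNNT2 and ACTC1 are both thin filament RNAs of cardiomyocytes, so their ratio compares the regulatory and the structural part within a library. It was -1.70, -1.49 and -1.49 on the log2 scale with the scrambled ASO and -0.73, -1.32 and -1.20 in MYH7B ASO replicates 2 to 4. The groups do not overlap, and the mean difference of 0.48 (2-sided exact permutation p = 0.1, the smallest possible, adjusted over 5 ratios 0.167) means less ACTC1 per TNNT2 with the MYH7B ASO. It was 0.30 without MYH7B ASO replicate 2. Replicate 1 had a ratio of 0.69, with 734 TPM of ACTC1, and with it the difference was 0.92 (exact permutation p = 0.0571).

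Troponin genes of fast skeletal muscle were low. TNNC2 and TNNI2 stayed at or below 1.68 TPM in the 6 libraries and were not tested, and TNNT3 ranged from 0.74 to 8.17 TPM with a log2 fold change of -0.12 (limma adjusted p = 0.952). TNNI3K, a cardiac kinase that binds TNNI3, had 23.7, 15.4 and 19.8 TPM with the scrambled ASO and 9.76, 13.9 and 10.5 TPM in MYH7B ASO replicates 2 to 4. Its groups did not overlap, and 14.1% of all tested genes lay lower without overlap. Its log2 fold change of -0.73 was not called (limma adjusted p = 0.149). In the authors' deposited table the value was -0.57 (adjusted p-value 0.0598).

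Of 12 kinases and phosphatases that act on troponin I, all were tested, 1 was called lower and none higher. Over all tested genes 1.48% were called lower and 0.181% higher. This list too was chosen with earlier results of these data known. PRKG1, the cyclic GMP-dependent kinase, fell from 10.7, 10.5 and 8.93 TPM to 2.95, 3.22 and 2.99 TPM, a log2 fold change of -1.44 (SE 0.18, limma adjusted p = 0.0103). Without MYH7B ASO replicate 4 its limma adjusted p was 0.0554. PRKACA, the catalytic subunit of the kinase through which adrenergic drive reaches troponin I, had 53.4, 51.3 and 63.0 TPM and then 52.9, 30.1 and 28.2 TPM, so MYH7B ASO replicate 2 lay with the controls (log2 fold change -0.63, limma adjusted p = 0.260). The median of the 12 was -0.48, beside -0.044 over all tested genes. The authors' deposited table called 4 of the 12 lower (PRKACB, PRKCA, PRKG1 and ROCK1) and 1 higher, PPP1CA. Of its genes with an adjusted p-value, 5.69% were called lower and 3.02% higher.

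All 13 listed regulators of troponin transcription were tested, of which 2 were called lower and none higher. Over all tested genes 1.48% were called lower and 0.181% higher. The regulators were listed with earlier results of these data known. TEAD3 fell from 33.5, 36.8 and 35.5 TPM to 10.2, 9.32 and 8.70 TPM (log2 fold change -1.80, limma adjusted p = 0.00209). TEAD1 fell from 42.1, 43.9 and 39.4 TPM to 24.3, 24.4 and 23.8 TPM (log2 fold change -0.76, limma adjusted p = 0.0316), a call that was lost when any 1 library was left out (limma adjusted p from 0.0633 to 0.132). TEAD factors bind the MCAT element, of which the TNNT2 window holds 1 match, and 11.9% of all promoter windows hold its core. TNNT2 was within its control range in 1 of the 3 MYH7B ASO libraries. It lay below that range in replicates 3 and 4 (933 and 1045 TPM) and was not called. Whether the TEAD levels bear on TNNT2 was not tested. GATA4, of the family that binds the GATA site, had 146.5, 153 and 166 TPM and then 141, 132 and 107 TPM, which do not overlap (log2 fold change -0.30, limma adjusted p = 0.370). Of all tested genes 14.1% lay lower without overlap. The authors' deposited table called TEAD1, TEAD3 and MEF2A lower and none of the 13 higher. Of its genes with an adjusted p-value, 5.69% were called lower and 3.02% higher. SRF, which binds CArG boxes, had a log2 fold change of 0.28 (limma adjusted p = 0.493). SOX6, a repressor of slow muscle genes that include TNNI1, had 8.78, 6.27 and 10.7 TPM and then 3.20, 6.84 and 4.24 TPM. Its groups overlap (log2 fold change -0.75, limma adjusted p = 0.256), and whether SOX6 bears on TNNI1 was not tested.

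**Figure D5:**
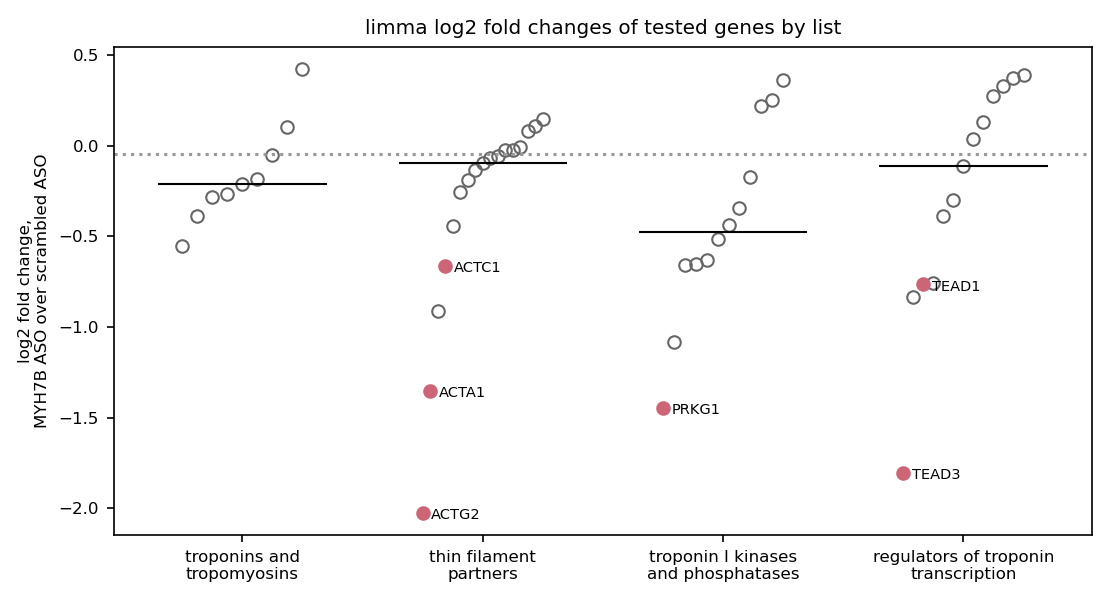
Limma log2 fold changes (y axis, MYH7B ASO over scrambled ASO, 6 libraries) of the tested genes of each list, in order of value within a list. Filled red points are called at an adjusted p under 0.05 and named, open points are not called, bars are list medians and the dotted line is the median of all tested genes. The 9 troponins and tropomyosins lie between -0.55 and 0.42 with no filled point.

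Genes whose levels ran most nearly parallel to TNNT2 over the 6 libraries, among 7543 genes averaging 10 TPM or more, were SH3RF2, OSBPL9, HMBOX1, MAN1C1 and TMOD1, with Pearson correlations of log2(TPM + 1) from 0.971 to 0.986. For TPM1 they were RACK1, TMA7, TBX18, PLA2G15 and NUDT2, with correlations from 0.976 to 0.993. With so few libraries and so many genes, correlations of this size are a description only.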

How the data were processed

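Poly-A RNA from 7 cardiomyocyte libraries was sequenced (3 scrambled ASO, 4 MYH7B ASO, grouped by the sample titles). The authors deposited a table of TPM per gene; the aligner, quantifier and annotation are not given in the sources used here, and the submitters' processing notes name GRCh38.p13 and DESeq2. The authors' deposited comparison table holds, per the file headers, a mean normalized count (a signal over libraries), a log2 fold change and its standard error, shrunken per the file name, a test score, and p-values. It has 25374 genes, 15527 of them with an adjusted p-value. Which libraries entered it is not stated.

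Each TPM column sums to 1000000, so depth is unknown, no counting interval is given, and replicate SD or the limma standard error measures precision. The column of MYH7B ASO replicate 1 fills 58721 positions and leaves 1513 empty. As deposited it correlated with the other 6 at a median of 0.408, and at 0.955 after reordering by sorted GENCODE 29 gene identifiers. GENCODE 29 (basic set) also has 58721 genes, whereas the other 6 columns cover 60234. Replicate 1 may thus have been quantified on another annotation, and the effect of this on its levels was not tested. The main comparison leaves this library out, and its reordered values are given beside it.

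Genes averaging 1 TPM or more went into limma 3.58.1 under R 4.3.3 (lmFit, eBayes with intensity trend) on log2(TPM + 1), which understates changes of low genes, with Benjamini-Hochberg adjustment over 15988 genes; called means an adjusted p under 0.05. The fit was also run on simulated data, whose changes were larger than that of any member, so that run does not bear on changes of the members' size. The 5 ratios used 2-sided exact permutation tests over libraries (scipy 1.17.1), which for 3 against 3 cannot go below 0.1. Alternatives were pseudocounts of 0.1 and 5, other filters, rescaling by median ratios or quantiles, removal of mitochondrially encoded genes, no trend, replicate blocks, 7 libraries, and leaving out each library. The members and lists were chosen with earlier results of these data known. Named genes were all members, called list genes, all genes of the list of other troponins, and for TNNT2 and TPM1 the 5 most correlated genes; partners, marker genes and list genes named without a call were chosen after their values were seen. Promoter windows came from RefSeq, read with pandas 2.3.3 in Python 3.11.15.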

Additional observations from a re-analysis of the deposited data

Results flagged for a closer look

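Over the 4 MYH7B ASO libraries, 14 measures (9 gene levels and 5 ratios) were searched for single distant values. For 3 of them replicate 1 lay far outside the range of the rest. Chance gives about 1 in 20 for a single measure. The 3 are not independent, because the TPM1 share is computed with TPM2 and TPM3. TPM2 was 573 TPM in replicate 1, against 199 to 243 TPM in replicates 2 to 4. TPM3 was 172 TPM there, against 41.0 to 50.6 TPM. The share of TPM1 in tropomyosin RNA was 74.4%, against 85.3% to 85.9%.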

How the results depend on the processing

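None of the 9 members was called under any of 18 alternatives, and the lowest limma adjusted p of any member was 0.0642, for TPM2 with quantile normalization. TNNT2, TNNI1, TNNI3, TNNC1, TNNT1, TPM2 and TPM4 kept their sign in all 18. TPM1 ran from -0.12 to 0.0030 when single libraries were left out, and turned positive with median-ratio rescaling (0.0055), quantile normalization (0.0018), without scrambled ASO replicate 3 (6.2e-04), without MYH7B ASO replicate 2 (0.0030) and with the title block over 7 libraries (0.010). TPM3 turned positive over 7 libraries (0.25, and 0.47 with the title block), and TNNT3 ran from -0.70 to 0.49 when single libraries were left out, positive without scrambled ASO replicate 2 (0.49) or MYH7B ASO replicate 3 (0.15) or 4 (0.17). With 7 libraries the TPM1 share differed by 0.88 percentage points and the log2 ratio of TNNT2 to ACTC1 by 0.92. Over all genes, 265 were called on 6 libraries, 40 with no filter on low values, 150 with no intensity trend, 170 with 7 libraries, and 53 to 149 when 1 library was left out. The cause of these moves was not tested, and the fits with 1 library left out also had fewer libraries. With the replicate block, by title or description number, 0 genes were called in limma (1718 and 1096 at an unadjusted p under 0.05), as with the title block over 7 libraries (1773). Whether the numbers pair the libraries cannot be decided from so few same-numbered pairs, which were not set against differently numbered ones. Same-numbered deviations correlated at 0.076 and 0.11 by title and at -0.073 and -0.039 by description. By title over 7 libraries the correlations were 0.019, 0.14 and 0.021. With the title block the log2 ratio of TNNI3 to TNNI1 differed by -0.94.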
